A study of Homo sapiens with 12 samples.

Results

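MDA-MB-468 cells, a human triple-negative breast cancer line, held a small set of genes that were near absent without drug and measurable in every library made after SAHA (vorinostat, an inhibitor of zinc-dependent histone deacetylases). A gene belonged to the set when its mean over the 3 control libraries was at most 0.5 TPM and its value was at least 3 TPM in each of the 3 SAHA libraries. TPM is a length-corrected share of all transcripts in a library. Histone genes, TUBB4A and rows without a gene name were left out. TUBB4A met both thresholds and no histone gene did. The set held 30 of the 59324 rows of the expression table, or 0.0677% of the 44321 named rows that were silent in control cells by the same threshold. The members were thus chosen by their TPM in SAHA and control libraries, so the difference between these groups is described below without a test.

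The 4 groups had 3 libraries each. SAHA cells had 10 µM SAHA for 12 h. Combination cells were pretreated with sonidegib, an inhibitor of Smoothened in the Hedgehog pathway, at 10 µM for 72 h and then had SAHA at 10 µM for 12 h. Sonidegib cells had 10 µM for 72 h, and control cells had neither drug. The labels do not give the time that control cells were kept, or say if sonidegib was present while SAHA was. They do not describe the libraries of a group as separate cultures either, so the p-values rest on differences between libraries of a group that may be technical. Read depth cannot be recovered from TPM.

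Histone deacetylases remove acetyl groups from histone tails, and deacetylated chromatin is packed more tightly and is less often transcribed. Repressors bring these enzymes to the genes they silence. The best known in non-neural cells is REST, which binds RE1 elements near neuronal genes and recruits deacetylases through the corepressors RCOR1 and SIN3A. Inhibitors such as SAHA raise histone acetylation, and genes of other tissues are among those that then become detectable.

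All 8 epithelial and basal markers of the line, among them EGFR and the keratins KRT5, KRT8 and KRT18, averaged 1 TPM or more in each group. They summed to 10056 to 10522 TPM in SAHA, 8780 to 9665 in control, 5249 to 5414 in combination and 5319 to 5725 in sonidegib libraries. The 17 annotated 5S ribosomal RNA copies were at 0 TPM in all SAHA and control libraries, against 1488 to 5135 TPM in combination and 1763 to 12641 TPM in sonidegib libraries. Mitochondrial ribosomal RNA took 1.18% to 1.35% of TPM in SAHA, 0.565% to 0.670% in control, 2.41% to 2.86% in combination and 2.06% to 2.48% in sonidegib libraries. 5S RNA was thus above 0 only in the groups that had sonidegib, where it varied widely between libraries. Between groups with and without sonidegib, whatever set the 5S content and the effect of sonidegib cannot be told apart.

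The 24 protein-coding members made up 0.319% of the 7536 protein-coding genes silent in control cells. The other members were 4 antisense RNAs of 4944 silent ones, 1 processed pseudogene of 9916 and 1 unprocessed pseudogene of 2556. Chromosome 19 held 6 of the 30 genes and chromosome 11 held 4. The median member had a mean of 5.01 TPM in SAHA libraries, against 0.240 TPM in control libraries. Leaving out RPL22P1, the members summed to 155 to 164 TPM per SAHA library, against 6.98 to 8.91 TPM per control library. The levels reached were low: only RPL22P1 and AP000692.2 had a SAHA mean above 10 TPM. In bulk RNA, a low level in every cell and a high level in few cells cannot be told apart.

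The thresholds cut through a run of neighbouring values. Just inside the control threshold were FSD1 at a control mean of 0.473 TPM, GDA at 0.433 TPM and HAP1 at 0.430 TPM. Just outside it were CAPN5 and ZMYND10, both at 0.533 TPM, and IL1RN at 0.537 TPM. On the SAHA side the lowest library was 3.03 TPM for CLCN4 and 3.10 TPM for PIK3CD and GFY, all inside, and 2.99 TPM for TMEM86A, 2.97 TPM for AC103591.3 and 2.94 TPM for LRRC73, all outside. A looser level of 1 TPM in each SAHA library was reached by 239 of the silent rows. In the opposite direction, 4 rows with at least 3 TPM in each control library had a SAHA mean of at most 0.5 TPM, namely FMO6P, BEND3, RCC2-AS1 and LINC00689.

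**Figure D1:**
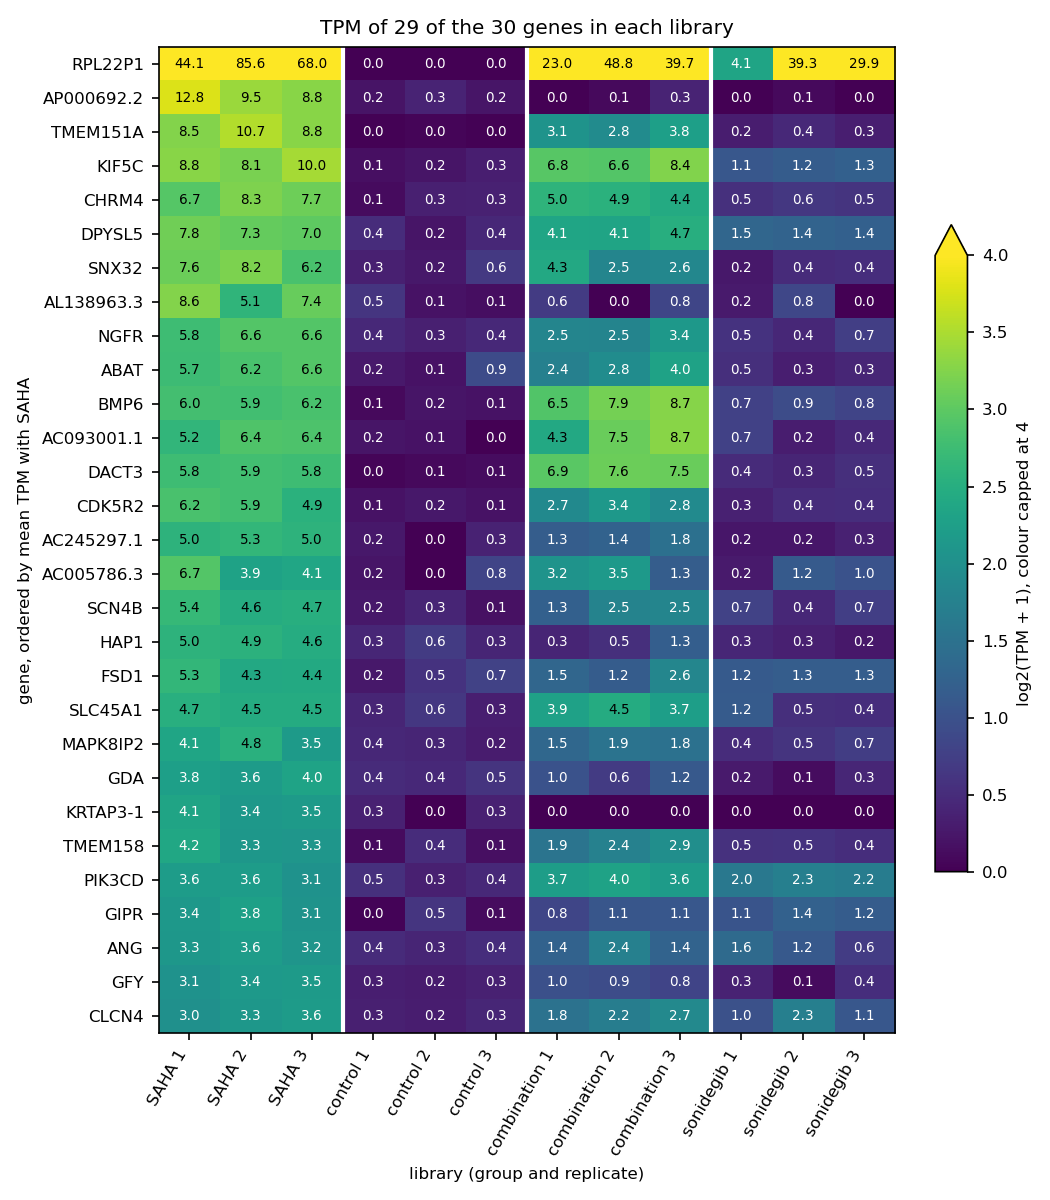
TPM of 29 of the 30 genes (rows, ordered by mean TPM in SAHA libraries) in the 12 libraries (columns, 3 each of SAHA, control, combination and sonidegib); each cell prints the TPM and its colour is log2(TPM + 1), capped at 4. The choice of genes required a control mean of at most 0.5 TPM and at least 3 TPM in each SAHA library. Every control cell is below 1 TPM and every SAHA cell at or above 3.03 TPM. Combination libraries range from genes above their SAHA level (BMP6, DACT3) to KRTAP3-1 at 0 TPM.

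Libraries of cells that had sonidegib took no part in the choice of genes, so SAHA after sonidegib could be set against sonidegib alone by a test. Of the 30 genes, 21 were higher in combination than in sonidegib cells and none was lower, by limma on log2(TPM + 1) with Benjamini-Hochberg adjustment over the whole table and a threshold of 0.05. Across all 14743 genes tested, 17.1% were called higher and 20.4% lower. At an unadjusted p under 0.05 the members gave 22 higher and 0 lower. The median log2 change was 1.01 over the members and -0.02 over all genes. Among the 570 other tested genes that were silent in control cells, 127 (22.3%) were called higher, 32 were called lower and the median log2 change was 0.19. All 30 members passed the filter on low values through their SAHA libraries, and the 570 others could pass through any group, so these shares are not of like-chosen genes. The p-values rest on a spread shared by all 12 libraries, including the control and SAHA libraries that had chosen the genes. In a limma fit of the 6 combination and sonidegib libraries alone, 20 members were called higher and 0 lower. Over the whole table that fit called 2284 genes higher and 2776 lower. Its adjusted p for DACT3 was 6.76e-05, against 4.73e-08 with all 12 libraries.

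Levels in the 4 groups were as follows. The median member had 2.72 TPM in combination libraries and 0.512 TPM in sonidegib libraries. Leaving out RPL22P1, the members summed to 77.5 to 91.9 TPM per combination library, against 18.4 to 20.0 TPM per sonidegib library. At 3 TPM or more in each library there were 9 members in combination cells, against 1, RPL22P1, in sonidegib cells. Libraries varied more where levels were low, with a median coefficient of variation over the members of 18.9% in combination and 26.9% in sonidegib libraries, and of 9.81% in SAHA and 42.9% in control libraries.

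**Figure D2:**
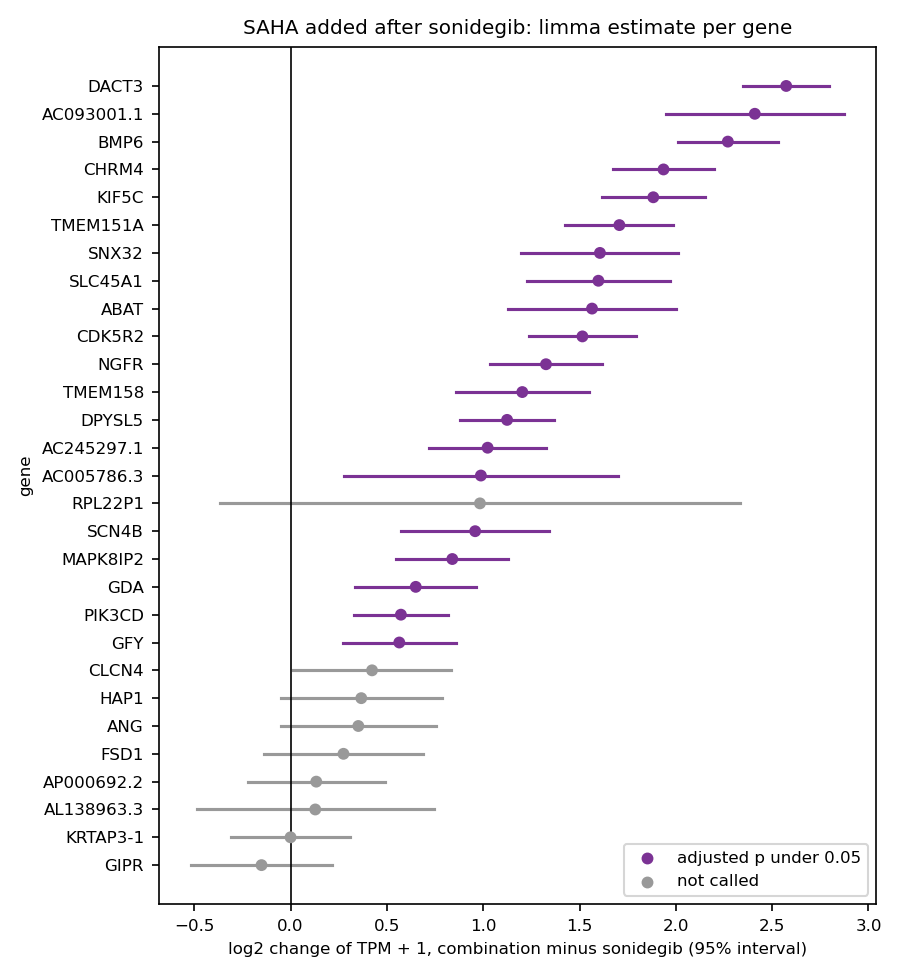
Log2 change of TPM + 1, combination minus sonidegib, for 29 of the 30 genes (points, limma estimate; lines, 95% interval; n = 3 libraries per group), with genes at an adjusted p under 0.05 in purple and the others in grey. Changes run from 2.57 for DACT3 to -0.15 for GIPR, and 27 of the 29 estimates are above 0.

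Genes of axonal transport and the neuronal cytoskeleton formed one class of 6, assembled after the values had been seen. KIF5C, a kinesin-1 heavy chain that carries cargo along microtubules in neurons (chr2:148875250-149026759, plus strand, GRCh38), had 8.81, 8.14 and 9.96 TPM in SAHA libraries, against 0.12, 0.17 and 0.26 TPM in control libraries. It had 6.79, 6.58 and 8.44 TPM in combination libraries, against 1.12, 1.24 and 1.34 TPM in sonidegib libraries. All 3 combination libraries lay above all 3 sonidegib libraries, and the sonidegib libraries were in turn above every control library. The log2 change of combination over sonidegib was 1.88 ± 0.12 (SE, limma adjusted p = 9.10e-07). DPYSL5, a collapsin response mediator of axon growth (chr2:26847747-26950351, plus strand), had 7.77, 7.31 and 7 TPM in SAHA libraries and 0.42, 0.17 and 0.36 TPM in control libraries. Its values were 4.12, 4.07 and 4.67 TPM in combination libraries, against 1.49, 1.43 and 1.35 TPM in sonidegib libraries. Again the groups did not overlap, and the log2 change was 1.12 ± 0.11 (SE, limma adjusted p = 1.93e-05).

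CDK5R2 encodes p39, an activator of the neuronal kinase CDK5 (chr2:218959655-218962162, plus strand). It had 6.24, 5.91 and 4.90 TPM in SAHA libraries, against 0.15, 0.20 and 0.14 TPM in control libraries, and 2.73, 3.38 and 2.77 TPM in combination libraries, against 0.29, 0.42 and 0.44 TPM in sonidegib libraries. The log2 change of combination over sonidegib was 1.52 ± 0.13 (SE, limma adjusted p = 5.05e-06), with no overlap. MAPK8IP2, a scaffold for JNK kinases, averaged 4.15 ± 0.65 TPM in SAHA and 0.310 ± 0.062 TPM in control libraries (SD, n = 3 each). It averaged 1.74 ± 0.18 TPM in combination and 0.530 ± 0.121 TPM in sonidegib libraries (SD, n = 3 each), a log2 change of 0.84 ± 0.13 (SE, limma adjusted p = 0.000486). HAP1, the huntingtin-associated protein of vesicle transport, did not pass the test. It had 4.98, 4.92 and 4.56 TPM in SAHA libraries and 0.34, 0.62 and 0.33 TPM in control libraries, but 0.33, 0.45 and 1.29 TPM in combination libraries, against 0.34, 0.28 and 0.20 TPM in sonidegib libraries. Those last groups overlapped, and the 95% interval of the log2 change was -0.05 to 0.79 (limma adjusted p = 0.158). FSD1, a microtubule-associated protein, averaged 1.77 ± 0.71 TPM in combination and 1.24 ± 0.04 TPM in sonidegib libraries (SD, n = 3 each), with an interval of -0.14 to 0.69 (limma adjusted p = 0.283).

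Receptors, ligands and signalling proteins made up a second class of 6. In it 5 were called higher in combination than in sonidegib cells, against 21 of all 30 members and 17.1% of all tested genes. The axonal class had 4 of 6, enzymes 2 of 3, other proteins 4 of 5, and antisense RNAs and pseudogenes 3 of 6. No difference between classes is read from these counts. CHRM4, a muscarinic acetylcholine receptor that lowers cyclic AMP (chr11:46385098-46386608, minus strand), had 6.72, 8.32 and 7.69 TPM in SAHA libraries, against 0.09, 0.28 and 0.29 TPM in control libraries. It had 5.05, 4.90 and 4.44 TPM in combination libraries, against 0.47, 0.56 and 0.51 TPM in sonidegib libraries. The ranges were far apart, with a log2 change of 1.94 ± 0.12 (SE, limma adjusted p = 6.54e-07). NGFR, the p75 neurotrophin receptor (chr17:49495293-49515017, plus strand), had 5.78, 6.61 and 6.62 TPM in SAHA libraries and 0.37, 0.28 and 0.37 TPM in control libraries. Combination libraries had 2.52, 2.48 and 3.38 TPM, against 0.50, 0.36 and 0.67 TPM in sonidegib libraries. NGFR was higher in each combination library, by 1.33 ± 0.13 on the log2 scale (SE, limma adjusted p = 2.05e-05).

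BMP6 and DACT3 were the protein-coding members whose combination level most exceeded their SAHA level. BMP6 is a secreted bone morphogenetic protein (chr6:7726797-7881422, plus strand). It had 5.99, 5.93 and 6.23 TPM in SAHA libraries, against 0.07, 0.17 and 0.15 TPM in control libraries, and 6.51, 7.92 and 8.68 TPM in combination libraries, against 0.71, 0.91 and 0.77 TPM in sonidegib libraries. Every combination library was above every SAHA library, and the log2 change of combination over sonidegib was 2.27 ± 0.12 (SE, limma adjusted p = 1.87e-07). DACT3 binds Dishevelled and antagonises Wnt signalling (chr19:46647612-46661138, minus strand). It had 5.76, 5.90 and 5.76 TPM in SAHA libraries, against 0.04, 0.07 and 0.10 TPM in control libraries. In combination libraries it had 6.87, 7.60 and 7.46 TPM, against 0.40, 0.33 and 0.46 TPM in sonidegib libraries. This was the largest of the 30 changes, at 2.57 ± 0.10 (SE, limma adjusted p = 4.73e-08), and here too each combination library exceeded each SAHA library.

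PIK3CD, the p110 delta catalytic subunit of PI3 kinase best known in leukocytes (chr1:9651732-9729114, plus strand), had 3.65, 3.64 and 3.10 TPM in SAHA libraries, against 0.47, 0.28 and 0.38 TPM in control libraries. It had 3.67, 3.95 and 3.57 TPM in combination libraries, against 2.03, 2.31 and 2.20 TPM in sonidegib libraries. Each sonidegib library was above each control library and below each SAHA and combination library, and the change of combination over sonidegib was 0.57 ± 0.11 (SE, limma adjusted p = 0.00181). Of 6 leukocyte markers only CD14 reached a mean of 1 TPM in any group, and PTPRC and CD3E stayed at or below 0.04 TPM in each group mean. The 6 summed to 300 to 336 TPM in SAHA, 297 to 322 in control, 207 to 222 in combination and 301 to 311 in sonidegib libraries. GIPR, the receptor for the gut hormone GIP (chr19:45668244-45683724, plus strand), had 3.38, 3.81 and 3.14 TPM in SAHA libraries, against 0.03, 0.54 and 0.08 TPM in control libraries. It had 0.78, 1.09 and 1.12 TPM in combination libraries, against 1.05, 1.36 and 1.23 TPM in sonidegib libraries. These overlapped, and the 95% interval of the log2 change, -0.52 to 0.21, included 0 (limma adjusted p = 0.515).

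Among 4 channels and transporters, 3 were called higher in combination cells, against 21 of all 30 members and 17.1% of all tested genes. SLC45A1, a sugar transporter of the brain, averaged 4.05 ± 0.41 TPM in combination and 0.700 ± 0.442 TPM in sonidegib libraries (SD, n = 3 each), close to its 4.57 ± 0.13 TPM in SAHA libraries, with a log2 change of 1.60 ± 0.17 (SE, limma adjusted p = 3.04e-05). SCN4B, a beta subunit of voltage-gated sodium channels, averaged 4.90 ± 0.45 TPM in SAHA and 0.220 ± 0.101 TPM in control libraries, and 2.12 ± 0.68 TPM in combination and 0.587 ± 0.197 TPM in sonidegib libraries (SD, n = 3 each). Its log2 change over sonidegib was 0.96 ± 0.18 (SE, limma adjusted p = 0.0013). CLCN4, a chloride/proton exchanger of endosomes, had 1.83, 2.23 and 2.68 TPM in combination libraries, against 0.98, 2.31 and 1.13 TPM in sonidegib libraries. The groups overlapped through the second sonidegib library, and limma gave an adjusted p of 0.097, or 0.0074 without that library. Leaving out any other single combination or sonidegib library gave limma adjusted p-values of 0.0782 to 0.308. CLCN4 was called in 2 of 18 settings.

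Enzymes numbered 3. ABAT, the transaminase that breaks down the transmitter GABA (chr16:8674565-8784575, plus strand), had 5.70, 6.25 and 6.59 TPM in SAHA libraries, against 0.21, 0.15 and 0.89 TPM in control libraries. Its combination libraries had 2.36, 2.84 and 3.95 TPM, against 0.45, 0.26 and 0.35 TPM in sonidegib libraries. They did not overlap, and the log2 change was 1.57 ± 0.20 (SE, limma adjusted p = 0.000111). GDA, which deaminates guanine, averaged 3.78 ± 0.21 TPM in SAHA and 0.433 ± 0.076 TPM in control libraries (SD, n = 3 each). It averaged 0.927 ± 0.277 TPM in combination and 0.223 ± 0.125 TPM in sonidegib libraries (SD, n = 3 each), a log2 change of 0.65 ± 0.14 (SE, limma adjusted p = 0.00405). ANG, the secreted ribonuclease angiogenin, had 1.38, 2.35 and 1.41 TPM in combination libraries, against 1.61, 1.16 and 0.64 TPM in sonidegib libraries. Its groups overlapped, and the 95% interval of the change was -0.05 to 0.76 (limma adjusted p = 0.160).

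The remaining 5 proteins have no shared role. TMEM151A, a membrane protein found mainly in brain (chr11:66291870-66296664, plus strand), had the highest SAHA mean of the protein-coding members, with 8.52, 10.7 and 8.79 TPM in SAHA libraries, against 0.02, 0.04 and 0.02 TPM in control libraries. It had 3.14, 2.80 and 3.77 TPM in combination libraries, against 0.25, 0.37 and 0.26 TPM in sonidegib libraries. Its log2 change over sonidegib was 1.71 ± 0.13 (SE, limma adjusted p = 2.58e-06), with no overlap. The sorting nexin SNX32 (1.61 ± 0.19, adjusted p = 5.62e-05), the membrane protein TMEM158 (1.20 ± 0.16, adjusted p = 0.000128) and the Golgi protein GFY (0.56 ± 0.13, adjusted p = 0.00613) were also called higher in combination than in sonidegib cells by limma. KRTAP3-1, a keratin-associated protein of hair, had 4.07, 3.40 and 3.52 TPM in SAHA libraries, against 0.29, 0 and 0.29 TPM in control libraries. It was listed at 0 TPM in all 3 combination and all 3 sonidegib libraries. No fold can be given for it there, and with the depth unknown the limit behind these zeros is unknown too.

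The antisense RNAs and pseudogenes went different ways. AC093001.1, an antisense RNA (chr3:149284782-149333653, plus strand), had 5.23, 6.42 and 6.37 TPM in SAHA libraries, against 0.17, 0.15 and 0 TPM in control libraries. It had 4.34, 7.53 and 8.73 TPM in combination libraries, against 0.71, 0.25 and 0.38 TPM in sonidegib libraries. These did not overlap, and its log2 change, 2.41 ± 0.21 (SE, limma adjusted p = 7.16e-06), was second only to that of DACT3. AP000692.2, an antisense RNA on chromosome 21 (chr21:36319792-36320670, minus strand), had 12.8, 9.54 and 8.77 TPM in SAHA libraries, against 0.16, 0.32 and 0.17 TPM in control libraries. In combination libraries it had 0, 0.07 and 0.32 TPM, against 0, 0.07 and 0 TPM in sonidegib libraries. No combination or sonidegib library exceeded 0.32 TPM, the highest control value, and the 95% interval of the combination change was -0.22 to 0.49 (limma adjusted p = 0.556). AL138963.3, antisense on chromosome 13, had 8.61, 5.13 and 7.41 TPM in SAHA libraries and 0.54, 0.14 and 0.11 TPM in control libraries, but 0.62, 0 and 0.78 TPM in combination libraries, against 0.22, 0.81 and 0 TPM in sonidegib libraries. Its combination and sonidegib values overlapped, with a 95% interval of -0.49 to 0.74 for the log2 change (limma adjusted p = 0.758).

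Several members share sequence with far more abundant genes, and how reads were divided between such copies is not given in the sources used here. RPL22P1, a processed pseudogene on chromosome 3 (chr3:169483671-169484080, minus strand), matched the ribosomal protein mRNA RPL22 over 85.4% of its length, at 98.0% identity in the longest stretch. RPL22 averaged 1115 TPM in SAHA, 1290 in control, 1375 in combination and 1434 in sonidegib libraries. RPL22P1 had 44.1, 85.6 and 68.0 TPM in SAHA libraries, against 0 TPM in all control libraries, and 23.0, 48.8 and 39.7 TPM in combination libraries, against 4.06, 39.3 and 29.9 TPM in sonidegib libraries. The spread was wide, with a log2 change of 0.98 and an interval of -0.37 to 2.34 (limma adjusted p = 0.239). In SAHA, combination and sonidegib libraries alike, replicate 1 was the lowest and replicate 2 the highest. With replicate number as a block in the model, the interval was -0.0586 to 2.025 (limma adjusted p = 0.122). The estimate rested on single sonidegib libraries, at 0.05 (interval -0.64 to 0.73) without the first and 1.55 (0.21 to 2.89) without the second, and was called in neither case. AL138963.3 lies opposite TPT1, and AC005786.3 opposite MFSD12, and each matched that gene over 100% of its longest transcript. AC245297.1, an unprocessed pseudogene, matched PDE4DIP over 100%, at 99.8% identity. AC005786.3 had 3.16, 3.48 and 1.27 TPM in combination libraries, against 0.22, 1.20 and 1.02 TPM in sonidegib libraries, a log2 change of 0.99 ± 0.32 (SE, limma adjusted p = 0.0318) that lost its call without combination replicate 1 (adjusted p = 0.0973) or 2 (0.115) or sonidegib replicate 1 (0.125). The call was also lost in a fit of the 6 libraries alone (0.0581), with no filter on low values (0.0846) and with a pseudocount of 0.1 (0.0961), all by limma. AC245297.1 had 1.26, 1.39 and 1.79 TPM in combination libraries, against 0.18, 0.18 and 0.29 TPM in sonidegib libraries. Its log2 change was 1.02 ± 0.14 (SE, limma adjusted p = 0.000165), while PDE4DIP averaged 70.8 TPM in combination and 41.5 TPM in sonidegib libraries. The 5 members that matched another gene over most of their transcript were then left out, a choice made after the data had been seen. Of the other 25, 18 were called higher in combination than in sonidegib cells, against 17.1% of all tested genes. Whether the libraries recorded strand is not stated, and 9 members overlap another annotated gene that averaged 1 TPM or more in some group, so their values are uncertain. SNX32 is one of these: it shares 14.4% of its transcript with CFL1, at 1139 TPM in combination and 1120 TPM in sonidegib libraries. PIK3CD, ABAT, MAPK8IP2, AP000692.2 and ANG are others. ANG shares 47.7% of its transcript with RNASE4, at 1.99 TPM in combination and 1.12 TPM in sonidegib libraries.

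Levels with and without the sonidegib pretreatment were compared as a description, because the SAHA and control libraries had chosen the genes. The median member had a combination mean at 49.9% of its SAHA mean. In 4 members the combination mean was above the SAHA mean: BMP6 (127%), DACT3 (126%), AC093001.1 (114%) and PIK3CD (108%). In 5 it was under 25% of the SAHA mean: KRTAP3-1 at 0, AP000692.2 (1.26%), AL138963.3 (6.62%), HAP1 (14.3%) and GDA (24.5%). Combination libraries lay wholly below SAHA libraries for 23 members, against 35.8% of all tested genes, and wholly above for 2, against 20.6%. Sonidegib means were above control means for 24 members. Sonidegib libraries lay wholly above control libraries for 18 members, against 29.5% of all tested genes, and wholly below for 2, against 32.1%. The genes were chosen by their low control and high SAHA values, so nothing is read from these counts.

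**Figure D3:**
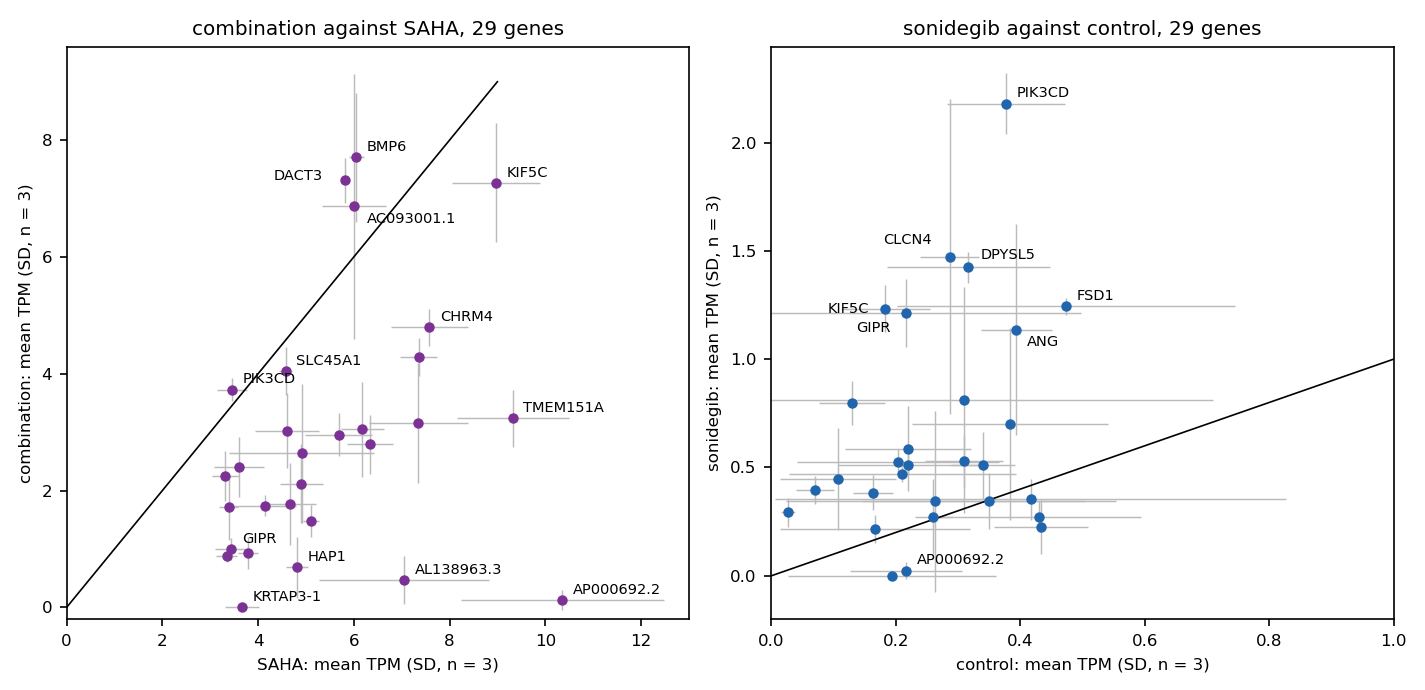
Mean TPM of 29 genes (RPL22P1 is off the scale and left out) in combination against SAHA libraries (left) and in sonidegib against control libraries (right), with SD over 3 libraries as bars and a line of equal levels; the panels have different axes. BMP6, DACT3, AC093001.1 and PIK3CD lie above the line on the left, AP000692.2, AL138963.3, HAP1 and KRTAP3-1 lie near 0 in combination libraries, and on the right PIK3CD is the highest in sonidegib libraries at 2.18 TPM.

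In sonidegib cells 14 members still met the silence threshold of a mean of at most 0.5 TPM and 16 did not. The highest after RPL22P1 were PIK3CD (2.18 ± 0.14 TPM in sonidegib and 0.377 ± 0.095 TPM in control libraries), CLCN4 (1.47 ± 0.73 and 0.287 ± 0.047 TPM), DPYSL5 (1.42 ± 0.07 and 0.317 ± 0.131 TPM), FSD1 (1.24 ± 0.04 and 0.473 ± 0.271 TPM) and KIF5C (1.23 ± 0.11 and 0.183 ± 0.071 TPM), all SD with n = 3 and in that order of groups. The same rule applied to sonidegib as the silent state and combination as the induced one found 3 rows: DACT3, AC093001.1 and RF00003, an annotation of a small nuclear RNA. DACT3 and AC093001.1 belong to both lists, or 6.67% of the 30 members and 66.7% of the second list. RF00003 was at 73.1, 83.6 and 103 TPM in combination libraries and 0 TPM in all sonidegib libraries, but at 0, 0 and 1.38 TPM in SAHA libraries and 0, 231 and 2.48 TPM in control libraries. It therefore did not follow SAHA outside the combination.

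Gene starts were compared next, because RefSeq (GRCh38.p14) gives a promoter of 300 bases, 250 before and 50 after the start, for 21 members. Observed over expected CpG, which is low where methylated CpG has been lost over evolution and high in CpG islands, had a median of 0.812 in the members' promoters, 0.366 in those of 5206 silent protein-coding genes outside the set and 0.580 over all 27305 promoters. A ratio of at least 0.6 was found in 15 members (71.4%), against 34.7% of the other silent genes and 49.0% of all promoters. The GC box, the letters GGGCGG on either strand, bound by SP factors, was present in 15 members (71.4%), against 37.7% of the other silent genes and 44.6% of all. The TATA box, TATAAA on either strand, was in 2 members (9.52%), against 16.8% and 12.0%. The E-box, CACGTG on either strand, was in 1 member (4.76%), against 6.36% and 7.44%. For 5 members, KIF5C, GDA, KRTAP3-1, SCN4B and CHRM4, the RefSeq start lies more than 1000 bases from the gene start in GENCODE release 29. Of the 16 with starts closer than that, 13 had a ratio of at least 0.6.

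Promoters of 4 members are given to show the range: DACT3 had the largest change in combination over sonidegib cells, TMEM151A the highest SAHA mean of the protein-coding members, CDK5R2 a ratio at the members' median, and GIPR a low ratio and no rise over sonidegib. Each is from RefSeq, 5′ to 3′ on the gene's strand, with GC boxes in capitals; none holds a TATA box. The DACT3 promoter (chr19:46661133-46661432, minus strand) has 6 GC boxes, 33 CpG and a ratio of 1.004. The TMEM151A promoter (chr11:66291644-66291943, plus strand) has 4 GC boxes, 52 CpG and a ratio of 1.03. The CDK5R2 promoter (chr2:218959416-218959715, plus strand) has 2 GC boxes, 26 CpG and a ratio of 0.812. The GIPR promoter (chr19:45667971-45668270, plus strand) has 2 GC boxes, 12 CpG and a ratio of 0.379.
DACT3: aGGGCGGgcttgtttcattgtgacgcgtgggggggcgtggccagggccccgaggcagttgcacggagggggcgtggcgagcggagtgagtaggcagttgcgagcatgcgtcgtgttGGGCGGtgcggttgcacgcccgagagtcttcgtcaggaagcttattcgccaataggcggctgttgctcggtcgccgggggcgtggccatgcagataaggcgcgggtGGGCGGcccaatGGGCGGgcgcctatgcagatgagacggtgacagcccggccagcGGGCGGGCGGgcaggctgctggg
TMEM151A: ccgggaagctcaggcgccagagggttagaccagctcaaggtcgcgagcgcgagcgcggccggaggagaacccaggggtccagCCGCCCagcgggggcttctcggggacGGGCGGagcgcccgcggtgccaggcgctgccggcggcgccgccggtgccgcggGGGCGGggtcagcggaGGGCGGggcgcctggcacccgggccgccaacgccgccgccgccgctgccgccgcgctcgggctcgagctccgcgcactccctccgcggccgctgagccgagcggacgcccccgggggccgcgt
CDK5R2: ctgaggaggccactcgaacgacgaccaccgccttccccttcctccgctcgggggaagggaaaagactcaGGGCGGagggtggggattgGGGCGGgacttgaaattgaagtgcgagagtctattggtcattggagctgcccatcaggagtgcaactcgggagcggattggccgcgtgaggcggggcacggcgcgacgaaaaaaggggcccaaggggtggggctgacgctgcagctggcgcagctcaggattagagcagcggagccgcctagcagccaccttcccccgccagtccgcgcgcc
GIPR: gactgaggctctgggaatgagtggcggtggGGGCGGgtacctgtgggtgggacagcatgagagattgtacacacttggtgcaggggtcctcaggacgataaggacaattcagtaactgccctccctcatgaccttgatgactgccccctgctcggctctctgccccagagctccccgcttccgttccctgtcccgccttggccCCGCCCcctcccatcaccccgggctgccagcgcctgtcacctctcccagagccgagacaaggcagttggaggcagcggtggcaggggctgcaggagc

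**Figure D4:**
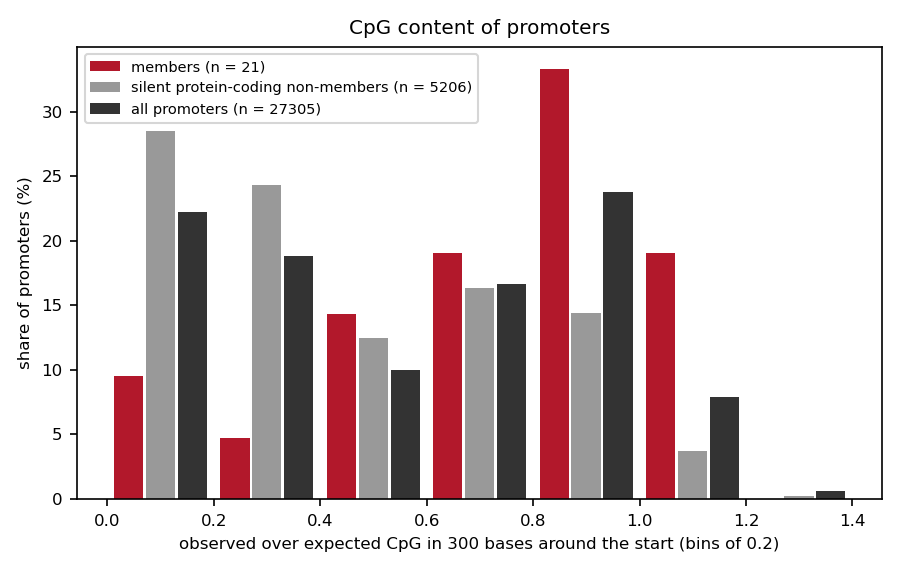
Share of promoters (%) by observed over expected CpG in 300 bases around the RefSeq start, in bins of 0.2, for 21 members (red), 5206 other protein-coding genes silent in control cells (light grey) and all 27305 promoters (dark). The members' bars sit to the right, with a median of 0.812, against 0.366 for the other silent genes and 0.580 for all promoters.

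Relatives of the members within their gene families, a comparison also chosen with values in view, differed widely in level. In 12 families the members had 33 relatives outside the set, of which 16 stayed at or below 0.5 TPM in all 4 groups and 12 were already over 1 TPM in control cells. Of 15 tested relatives, 5 were called higher and 1 lower in combination than in sonidegib cells by limma, against 17.1% and 20.4% of all tested genes. KIF5B, the ubiquitous kinesin-1 heavy chain, averaged 26.2 ± 6.0 TPM in SAHA and 25.2 ± 4.6 TPM in control libraries, and 21.6 ± 3.3 TPM in combination and 22.2 ± 1.7 TPM in sonidegib libraries (SD, n = 3 each), while KIF5A was at or below 0.01 TPM in each group mean. DACT1 and DACT2 were listed at 0 TPM in all groups. CHRM3 averaged 1.46 ± 0.36 TPM in combination and 1.83 ± 0.26 TPM in sonidegib libraries (SD, n = 3 each), and the other muscarinic receptors were below 0.4 TPM. CDK5R1, the other CDK5 activator, averaged 0.393 ± 0.047 TPM in SAHA and 0.877 ± 0.251 TPM in control libraries (SD, n = 3 each). MAPK8IP1, the relative of MAPK8IP2, averaged 29.2 ± 0.6 TPM in combination and 7.18 ± 0.40 TPM in sonidegib libraries (SD, n = 3 each), and its log2 change of 1.89 ± 0.11 (SE, limma adjusted p = 2.83e-07) was of the size of the larger ones in the set. It was outside the set because control libraries held 2.86 ± 0.51 TPM.

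**Figure D5:**
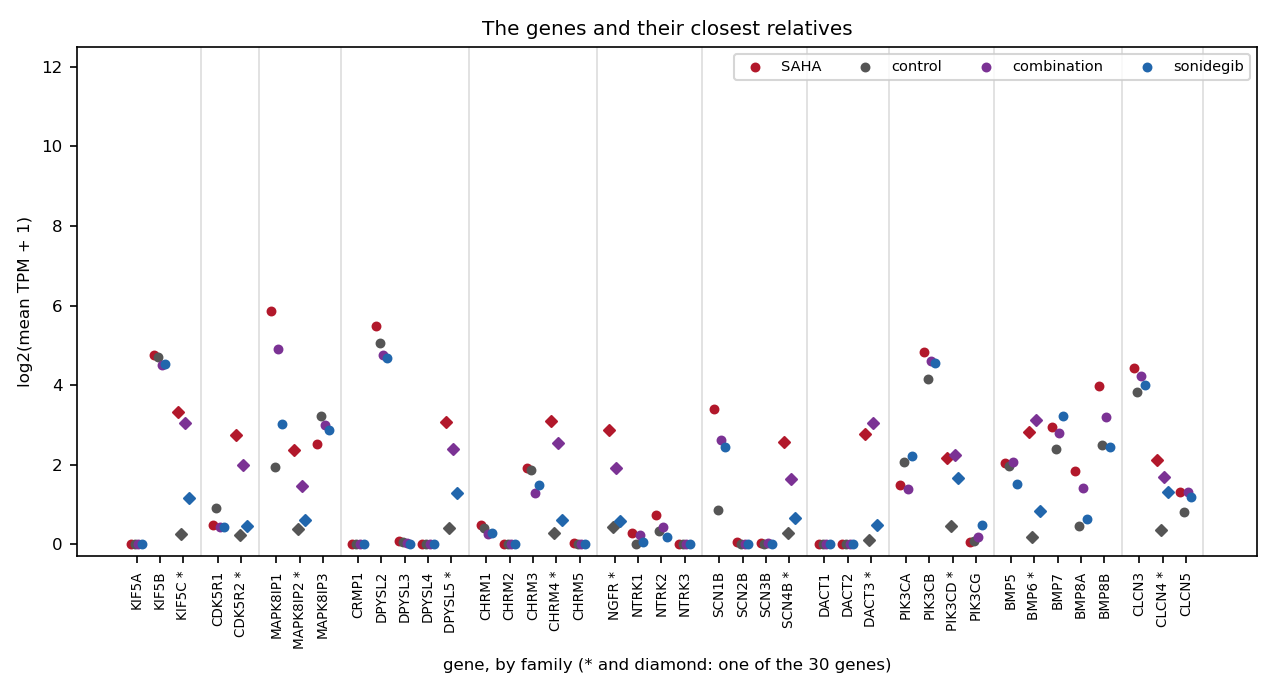
Log2(mean TPM + 1) of members (diamonds, starred names) and their relatives (circles) in 11 gene families, with SAHA, control, combination and sonidegib means (n = 3 libraries each) in 4 colours. Members lie near 0 in control libraries and higher in SAHA libraries by choice; most relatives lie near 0 in all 4 groups or, as KIF5B and PIK3CB, well above 0 in all of them.

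Members were sought in 11 lists of genes typical of other tissues or states. They were 4 of the 65 REST-linked neuronal genes (among them MAPK8IP2, DPYSL5 and CHRM4), 1 of 66 leukocyte genes (PIK3CD) and none of the other 9 lists. Only genes silent in control cells could be members, which held for 49 of the REST-linked and 54 of the leukocyte genes. Of all silent protein-coding genes, 0.319% were members. Of the 25 REST-linked genes tested, 15 were called higher and 2 lower in combination than in sonidegib cells by limma, with a median log2 change of 0.69. The 15 and the median include the 4 members, which were chosen by their high SAHA values. All 4 passed the filter through their SAHA libraries, so the list is not separate from the set. Over all genes tested, 17.1% were called higher and 20.4% lower, and the list counts below have the same background. Besides the 4 members, the higher REST-linked genes included TUBB3, a neuronal tubulin, at 82.3 TPM in combination and 32.5 TPM in sonidegib libraries, and INA, a neuronal intermediate filament, at 2.003 TPM in combination and 0.343 TPM in sonidegib libraries. The lower ones were NEFH (log2 change -0.45) and SYT7 (-0.20). Some of the higher genes, such as KIF1A and L1CAM, averaged over 1 TPM only in SAHA libraries. Listed genes of this kind may have passed the filter on low values through SAHA alone. REST itself averaged 4.30 ± 1.12 TPM in combination and 4.68 ± 0.14 TPM in sonidegib libraries, and 5.003 ± 1.02 TPM in SAHA and 5.98 ± 1.04 TPM in control libraries (SD, n = 3 each), with a log2 change of -0.12 ± 0.17 over sonidegib (SE, limma adjusted p = 0.626). Of 22 synapse genes tested, 9 were called higher and 2 lower, and without the second combination library 5 were higher. Metallothioneins gave 3 higher and 0 lower of 4, and motile cilium genes 4 higher and 3 lower of 15. The other lists had as many or more genes called lower than higher, apart from cancer-testis genes with 3 higher and 2 lower of 12. Counts of higher and lower were 2 and 4 of 9 for muscle, 2 and 8 of 14 for leukocyte, 1 and 2 of 12 for hormone and neuropeptide, 0 and 1 of 4 for erythroid, hepatic and pancreatic, 1 and 3 of 7 for pluripotency, and 3 and 8 of 22 for interferon and chemokine genes.

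Some markers of neurons differed between the groups in the same direction as the neuronal members. The 7 markers summed to 4.87 to 5.84 TPM in SAHA libraries, against 0.45 to 0.65 TPM in control libraries, and to 3.37 to 3.84 TPM in combination libraries, against 1.15 to 2.34 TPM in sonidegib libraries. The sums rested on SLC17A7, SYN1 and GAD1, at 2.25, 1.49 and 1.48 TPM in SAHA libraries. SLC17A7 averaged 1.22 TPM in combination and 0.0433 TPM in sonidegib libraries, and SYN1 averaged 1 TPM in combination and 0.390 TPM in sonidegib libraries. GAD1 was nearly level there, at 1.25 TPM in combination and 1.19 TPM in sonidegib libraries. SYT1 was low throughout, at 0.123 TPM in SAHA, 0.0167 in control, 0.06 in combination and 0.09 TPM in sonidegib libraries. The defining markers STMN2, SNAP25 and RBFOX3 were at 0 TPM in all SAHA and control libraries and at or below 0.013 TPM in combination and sonidegib means. SLC17A7 lies 583 bases from GFY. Erythroid markers summed to 2.97 to 3.78 TPM in SAHA libraries, against 0 in control libraries, and to 1.51 to 1.69 TPM in combination libraries, against 0 to 0.66 TPM in sonidegib libraries, with HBB at 0 TPM in all groups. Fibroblast markers summed to 10.4 to 13.1 TPM in SAHA libraries, against 3.22 to 4.50 TPM in control libraries, and to 9.61 to 10.2 TPM in combination libraries, against 4.6 to 7.1 TPM in sonidegib libraries. COL1A1 alone of them reached a mean of 1 TPM, and LUM was at 0 TPM in each group. The part of such cells in the members' values was not tested.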

How the data were processed

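RNA of 12 MDA-MB-468 libraries was sequenced. The authors deposited TPM per gene and library, rounded to 2 decimals. Bowtie2 2.4.1 and the build GRCh38 are named per the submitters' processing notes; the quantifier, the annotation and any filter are not given in the sources used here. TPM keep no counts, so depth is unknown and no counting intervals are given. Groups follow the labels. Gene types and coordinates come from GENCODE release 29, which matched all 30 members.

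Tests used limma 3.58.1 (R 4.3.3) on log2(TPM + 1) (4 group means over the 12 libraries, 8 residual degrees of freedom, intensity trend, two-sided). The 14743 genes with at least 1 TPM in at least 3 libraries were tested and p-values adjusted by Benjamini-Hochberg; genes at an adjusted p under 0.05 were called. The added 1 understates changes of low genes. Only combination against sonidegib was tested. The model was first tested on simulated data.

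Matches between transcripts were found with BLAST 2.17.0 at 90% identity or more; other steps used Python 3.11.15 and pandas 2.3.3. Named members were those highest by SAHA or sonidegib mean, with the largest or smallest change or ratio, nearest a threshold, or highest in each list. Of the 30 members, 1 is counted throughout but not reported by name here. The members, lists and this rule were chosen with earlier results of these data known. The classes, the gene families and the set without the 5 matching members were chosen after values had been seen. Alternatives were other pseudocounts, filters, scalings, variance models, thresholds, a replicate block and leaving out each library. Gene lists were REST-linked, synapse, cancer-testis, muscle, leukocyte, hormone and neuropeptide, erythroid/hepatic/pancreatic, motile cilium, pluripotency, interferon and chemokine, and metallothionein genes.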

Additional observations from a re-analysis of the deposited data

How the results depend on the processing

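Of the 30 members, 20 to 22 were called higher in combination than in sonidegib cells under every alternative, and 0 lower. Over the whole table these fits tested 13937 to 29345 genes and called 1882 to 3158 higher and 2484 to 3192 lower. Leaving out each of the 6 libraries gave 20 to 22. The same 20 members were called under all settings, 8 under none. AC005786.3 lost its call in 7 settings: leaving out combination replicate 1 or 2 or sonidegib replicate 1, the replicate block, the 6 libraries alone, no filter and a pseudocount of 0.1. Its adjusted p from limma was 0.00918 to 0.125 over the 18 settings, including those that kept the call. CLCN4 gained one in 2 settings. The log2 change of AL138963.3, not called, was -0.033 without combination replicate 3, -0.0622 without sonidegib replicate 3 and at most 0.383 without any other library. Counts that rest on thresholds moved most. The members also found by the sonidegib and combination rule were 2, but 0 at a sonidegib mean of at most 0.25 TPM, 5 at 1 TPM, 6 at 2 TPM in each combination library and 1 at 5 TPM. Members on in each combination library were 9 at 3 TPM, 15 at 2 TPM and 4 at 5 TPM; in each sonidegib library they were 1, 2 and 0 at those levels. The causes were not tested. Under median-of-ratios scaling 24 of the 30 genes still met the choice. Between combination and sonidegib libraries, deviations of same-numbered libraries from their group means correlated at 0.07, -0.05 and -0.03 over all tested genes. Replicate 3 nevertheless had the highest median-of-ratios scaling factor in each group. It was 1.07 in control, 1.11 in SAHA, 1.03 in sonidegib and 1.05 in combination libraries. Correlations with SAHA or control libraries were not examined, so a replicate effect across the groups is not excluded. With a replicate block 20 members were called higher (AC005786.3 had a limma adjusted p of 0.0523), and 2776 genes higher and 3192 lower over the whole table, against 2525 and 3011 without it. Depth is unknown, so levels under 1 TPM, and zeros, carry no stated precision.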
